A study of Mus musculus with 4 samples.

Results

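A set of genes that regulate transcription or quiescence in hematopoietic stem cells were followed in mouse LSK cells, the lineage-negative, cKit-positive, Sca1-positive fraction of bone marrow that holds stem cells and multipotent progenitors. They are Mecom, Prdm16, Meis1, Pbx3, Hlf, Tcf15, Mllt3, Bmi1 and Txnip, chosen by name, and the array measured all 9 with 22 probe sets, out of 18193 genes and 45037 probe sets. A gene is read by its brightest probe set (highest mean log2 intensity of the 4 arrays), and the other probe sets are given beside it. The Ncstn KO group was 2 mice of genotype Ncstn flox/flox Mx1-cre+, and the WT group was 2 Ncstn flox/flox littermates without cre. Each group had 1 female and 1 male: Ncstn KO replicate 1 and WT replicate 2 were female, and Ncstn KO replicate 2 and WT replicate 1 were male. From 14 days of age all mice received 3 injections of polyIC, an inducer of interferon, at 20 µg per g of body weight, and the marrow was sorted at 6 weeks of age, 4 weeks after the injections. Mx1-cre, a recombinase transgene switched on by interferon, was carried by the Ncstn KO group alone, so deletion of Ncstn and presence of the transgene cannot be told apart. Mx1-cre is known to act in several tissues besides blood, and which cells of these mice lost Ncstn was not tested.

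Long-term stem cells are kept out of cycle and able to self-renew by a network of transcription factors and chromatin proteins that is turned down as the cells commit to a lineage. Several of its members, among them Mecom, Prdm16, Meis1, Hlf and Mllt3, are also known from leukemias in which the gene is overexpressed, rearranged or fused to another gene. Nicastrin, the product of Ncstn, is part of gamma-secretase, the enzyme that releases the intracellular part of Notch receptors, whose partner on DNA is RBPJ.

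Ncstn itself had log2 intensities of 7.58 and 7.91 on Ncstn KO replicates 1 and 2, against 9.05 and 8.98 on WT replicates 1 and 2, a change of -1.27 (SE 0.22, limma adjusted p = 0.257) with both Ncstn KO arrays below WT. A second, dimmer Ncstn probe set read 5.86 and 7.09 in Ncstn KO against 6.81 and 6.79 in WT (-0.32, SE 0.45), with overlapping groups and a difference of 0.27 in the males, and the mean of the 2 probe sets gave -0.80. The brightest probe set thus ran with the labels and the dimmer did not separate them. Of the genes for the sorted proteins, Kit lay between 11.57 and 11.94 on all 4 arrays, and Ly6a, which encodes Sca1, was not analysed here. Cd34, Flt3 and Ptprc, genes of progenitors or of all white blood cells, lay between 11.57 and 12.81. Of 8 measured mature neutrophil and monocyte genes, which mark cells a lineage gate should remove, 6 were above the median level of all genes. S100a8 averaged 13.48 in Ncstn KO and 13.37 in WT. Averaged over the 4 arrays, Itgam and Cd14 lay below that level. Itgam was at 5.61 in Ncstn KO and 4.54 in WT, and Cd14 at 8.47 and 7.37. The summed intensity of the 8 genes measured of that list was 40304 to 53766 in Ncstn KO and 38102 to 46830 in WT. In sorted bulk RNA, fewer cells of a type and less RNA per cell cannot be told apart. Differences below are log2 Ncstn KO minus WT from a limma fit across all 18193 genes, with the standard error (SE) of the fit, Benjamini-Hochberg adjustment and n = 2 per group.

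None of the 9 regulators passed the test between the genotypes, and 8 of them had a change smaller than 0.25 (log2), as did 74.5% of all genes. Mllt3 had the highest change, 0.37, and Tcf15 the lowest, -0.17. The limma fit called 0 of the 9 at an adjusted p under 0.05, where it called 0.00% of all genes. At an unadjusted p under 0.05 it counted 0 of the 9, beside 6.80% of all genes. The count was 1 with sex as a block, with log2(value + 16) and among genes above the median level, Mllt3 each time. With the arrays scaled to the hybridization controls it was 1 too, Txnip. The counts over all genes fitted were 1591, 1196, 652 and 2840 in these settings, against 1237. The median change was 0.08 over the regulators and 0.02 over all genes, with 6 of 9 above WT (55.8% of all genes), and with the arrays scaled to the hybridization controls 1 of 9 was above WT. The 2 Ncstn KO arrays lay on one side of the 2 WT arrays for 2 of the 9, Mllt3 and Bmi1, both higher in Ncstn KO, against 34.0% of all genes (21.3% for higher alone). Over the 22 probe sets the same held for 5 that were higher and 2 that were lower in Ncstn KO, against 32.5% of all probe sets. No regulator changed by at least 2-fold with separate groups, as 1.71% of all genes did.

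Several lists of markers of committed cells differed in sum between the genotypes in the same libraries. The 7 granulocyte-macrophage progenitor genes were all above WT, with summed intensities of 46453 and 45085 in Ncstn KO against 31142 and 32221 in WT, and the 8 megakaryocyte-erythroid genes were all above WT, with 7845 and 6881 against 3227 and 3866. The 4 measured basophil and mast cell genes summed to 4525 and 3888 in Ncstn KO against 1778 and 1866 in WT, and all 4 were above WT. The groups were separate and higher in Ncstn KO for 6 of 7, 6 of 8 and 4 of 4 genes of these lists (21.3% of all genes). Mpo, Gata1 and Klf1 had overlapping groups. In the males Gata1 and Klf1 were below WT, by -0.50 and -0.56. Other lists ran lower in Ncstn KO. The 4 measured mature erythroid genes summed to 311 and 595 in Ncstn KO against 1195 and 680 in WT. Of the 4 genes 3 were below WT with separate groups (12.8% of all genes), and the median change was -1.07. Most of these sums came from Slc4a1, with log2 intensities of 7.92 and 8.89 in Ncstn KO against 9.94 and 8.96 in WT. The B cell and early lymphoid genes summed to 10775 and 12872 against 14342 and 13631, with 6 of 8 below WT and a median change of -0.76. With separate groups, 4 of the 8 were lower and 1 was higher. Dntt made up most of these sums and changed by -0.21 (SE 0.09). The mature neutrophil and monocyte genes were 8 of 8 above WT, with summed intensities that overlapped. Of 6 measured T and NK cell genes 4 lay below WT, and of 6 stromal and endothelial genes 3 lay above and 3 below. Of the genes of all these lists 0 passed the test. Their part in the values of the regulators was not tested.

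**Figure D1:**
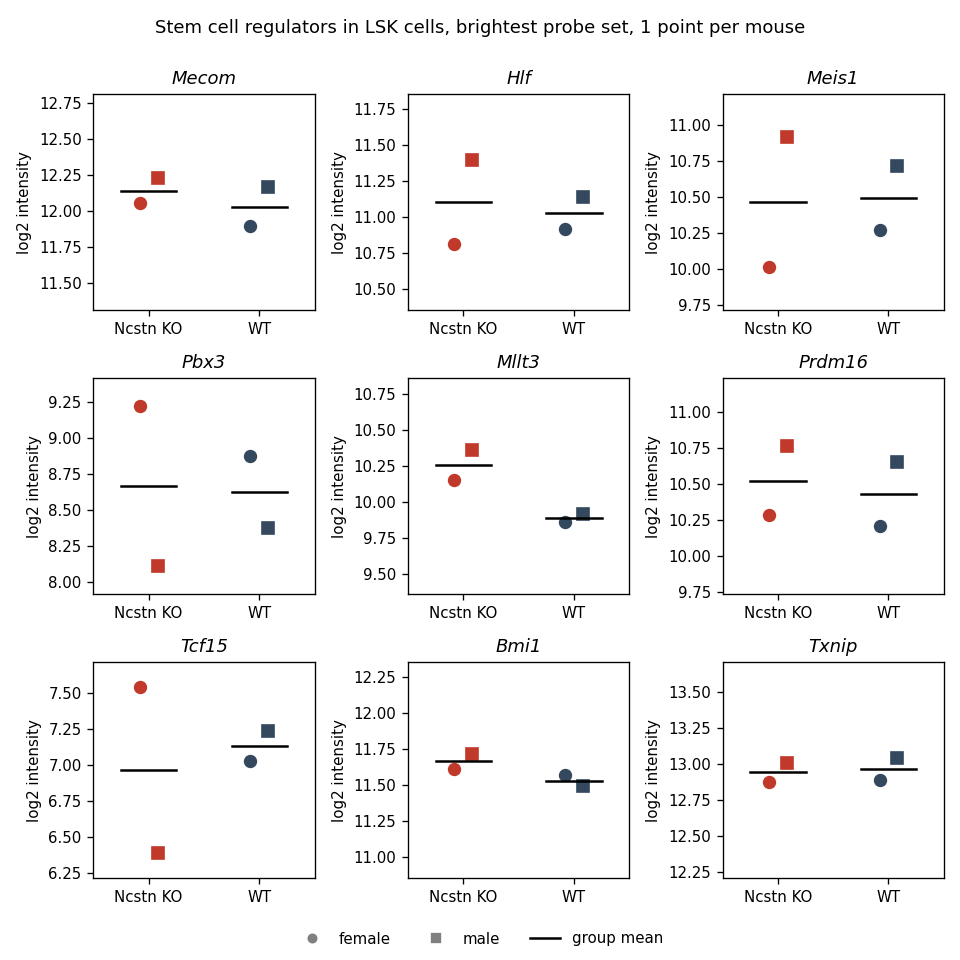
Log2 intensity (y axis) of the brightest probe set of each regulator in Ncstn KO and WT LSK cells, with 1 point per mouse, circles for females, squares for males and a line for each group mean; every panel spans the same height on the log2 scale. The groups overlap for 7 genes, and the points of Mllt3 and Bmi1 are separate, with Ncstn KO above WT.

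Mecom and Prdm16 encode related zinc finger proteins of the PRDM family, both required for stem cell maintenance. Mecom (probe set 1438325_at) had log2 intensities of 12.06 and 12.23 on Ncstn KO replicates 1 and 2, against 12.17 and 11.90 on WT replicates 1 and 2. The groups overlapped, since WT replicate 1 lay above Ncstn KO replicate 1, and the change was 0.11 (SE 0.12, 95% confidence interval -0.18 to 0.41, limma adjusted p = 0.972). The other probe sets for Mecom were close to the bottom of the scale, at 3.69 and 3.70 in Ncstn KO against 4.06 and 3.99 in WT, and at 2.61 and 2.72 against 2.67 and 2.48. The first of these was lower on both Ncstn KO arrays, with a change of -0.34 (SE 0.17), and RMA values give no background to judge it by. The mean over the 3 probe sets gave -0.045 for the gene.

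Prdm16 (1440745_at) had log2 intensities of 10.28 and 10.77 on Ncstn KO replicates 1 and 2, against 10.66 and 10.21 on WT replicates 1 and 2. The 2 groups covered nearly the same range, with the males high and the females low in each, and the change was 0.09 (SE 0.23, interval -0.46 to 0.64, limma adjusted p = 0.993). Its 3 other probe sets pointed in different directions. The probe set 1440870_at read 8.61 and 8.56 in Ncstn KO against 8.13 and 8.07 in WT, a change of 0.49 (SE 0.21) with separate groups that did not pass among all probe sets (limma adjusted p = 0.964). Another read 7.36 and 7.23 against 7.23 and 6.70 (0.33, SE 0.29), and the last 7.27 and 6.57 against 7.11 and 7.02 (-0.15, SE 0.33). On the brightest probe set the mice of each group were 0.45 to 0.48 apart.

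The pair also share sequence near their starts, which is shown here for that reason. The sequences around the upstream start of Mecom (chr3:30509710-30510009, minus strand) and the start of Prdm16 (chr4:154636824-154637123, minus strand) are RefSeq promoters of build GRCm38.p6, each from 250 bases before to 50 bases after the start. Capitals mark the longest run of identical bases that they share, 24 bases long, which reaches the end of the Mecom window.
Mecom: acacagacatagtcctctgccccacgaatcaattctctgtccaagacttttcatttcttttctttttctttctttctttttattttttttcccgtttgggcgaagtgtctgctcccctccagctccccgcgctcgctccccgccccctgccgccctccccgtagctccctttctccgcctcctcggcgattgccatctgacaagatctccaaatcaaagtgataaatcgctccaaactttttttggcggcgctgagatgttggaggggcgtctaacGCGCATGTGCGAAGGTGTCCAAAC
Prdm16: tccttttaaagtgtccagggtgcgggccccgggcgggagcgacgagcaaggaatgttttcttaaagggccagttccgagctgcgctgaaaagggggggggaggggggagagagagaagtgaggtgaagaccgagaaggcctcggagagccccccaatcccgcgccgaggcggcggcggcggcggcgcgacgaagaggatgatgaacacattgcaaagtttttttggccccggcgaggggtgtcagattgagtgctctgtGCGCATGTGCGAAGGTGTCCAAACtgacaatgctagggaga
The run begins 27 bases into the transcript of Mecom and 10 bases into that of Prdm16, counting the start as base 1, and 2 of 32851 promoters of this length hold it on the same strand, these and no other. The second RefSeq start of Mecom shares a run of at most 7 bases with Prdm16.

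Meis1 and Pbx3 encode TALE homeodomain proteins that bind DNA together with Hox proteins. Meis1 (1443260_at) had log2 intensities of 10.01 and 10.91 on Ncstn KO replicates 1 and 2, against 10.71 and 10.27 on WT replicates 1 and 2. The highest and the lowest of the 4 values were both Ncstn KO arrays, 0.90 apart, a gap wider than that of 94.7% of genes in this group. The change was -0.03 (SE 0.31, interval -0.79 to 0.74, limma adjusted p = 0.9996), and it became 0.42 without Ncstn KO replicate 1 and -0.48 without Ncstn KO replicate 2. A second probe set read 10.16 and 10.49 in Ncstn KO against 10.23 and 10.17 in WT (0.13, SE 0.17). The dimmest, 1459423_at, read 8.15 and 8.50 against 8.78 and 8.96, a change of -0.54 (SE 0.23) with both Ncstn KO arrays below WT that did not pass (limma adjusted p = 0.964).

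Pbx3 had the reverse order of Meis1. Its log2 intensities (1447640_s_at) were 9.22 and 8.11 on Ncstn KO replicates 1 and 2, against 8.37 and 8.88 on WT replicates 1 and 2, so that the array lowest for Meis1 was highest for Pbx3 and the reverse. The change was 0.04 (SE 0.40, interval -0.92 to 1.01, limma adjusted p = 0.9996), and it was -0.51 without Ncstn KO replicate 1 and 0.60 without Ncstn KO replicate 2. Its second probe set ranked the arrays in nearly the same way, at 8.18 and 6.77 in Ncstn KO against 6.74 and 7.44 in WT (0.38, SE 0.53). Both intervals were wide, so that changes well beyond these estimates cannot be told from 0.

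Hlf encodes a PAR bZIP factor whose expression marks stem cells, and Tcf15 a basic helix-loop-helix factor linked to stem cell quiescence. Hlf (1434736_at) had log2 intensities of 10.81 and 11.40 on Ncstn KO replicates 1 and 2, against 11.14 and 10.92 on WT replicates 1 and 2. As for Meis1, the Ncstn KO arrays were the highest and the lowest, and the change was 0.08 (SE 0.21, interval -0.43 to 0.58, limma adjusted p = 0.995). The second Hlf probe set read 10.50 and 10.78 in Ncstn KO against 10.47 and 10.41 in WT, with separate groups and a change of 0.20 (SE 0.15). Tcf15 had 1 probe set (1449592_at) and was the only regulator below the median level of all genes. It read 7.54 and 6.39 on Ncstn KO replicates 1 and 2, against 7.24 and 7.03 on WT replicates 1 and 2. Both WT values lay between the Ncstn KO values, which were 1.15 apart, and the change was -0.17 (SE 0.40, interval -1.15 to 0.82, limma adjusted p = 0.993). It was 0.41 without Ncstn KO replicate 2 and -0.74 without Ncstn KO replicate 1.

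Across the regulators, 2 of 9 (Pbx3 and Tcf15) had Ncstn KO arrays at least 1 log2 unit apart, against 4.12% of all genes. The Ncstn KO arrays were further apart than the WT arrays for 7 of 9, and for 63.0% of all genes.

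Hlf and Meis1 had the same order of arrays, from Ncstn KO replicate 2 at the top through WT replicate 1 and WT replicate 2 to Ncstn KO replicate 1, an order found for 3.78% of all genes. The reverse order of Pbx3 was the commoner, at 10.3% of all genes. Mecom and Prdm16 also shared an order, found for 3.26% of all genes. With 24 possible orders, these shares do not give how often some pair among 9 genes would match. The promoters of Hlf and Meis1 are shown because their brightest probe sets had the same order. That choice was made after the values were seen, and shared control of the genes was not tested. The second probe set of Hlf and the dimmest of Meis1 had other orders. Capitals mark the RBPJ core TGGGAA, searched on both strands (TTCCCA where it lies on the other strand). Hlf is at chr11:90390868-90391167, minus strand, and Meis1 at chr11:19018920-19019219, minus strand.
Hlf: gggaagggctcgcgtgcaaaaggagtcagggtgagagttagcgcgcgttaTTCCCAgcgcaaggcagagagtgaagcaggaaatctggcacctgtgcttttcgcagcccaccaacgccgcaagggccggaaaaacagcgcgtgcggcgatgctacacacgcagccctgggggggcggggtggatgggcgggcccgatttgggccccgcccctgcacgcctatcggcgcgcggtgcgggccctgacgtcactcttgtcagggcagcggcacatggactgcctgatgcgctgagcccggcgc
Meis1: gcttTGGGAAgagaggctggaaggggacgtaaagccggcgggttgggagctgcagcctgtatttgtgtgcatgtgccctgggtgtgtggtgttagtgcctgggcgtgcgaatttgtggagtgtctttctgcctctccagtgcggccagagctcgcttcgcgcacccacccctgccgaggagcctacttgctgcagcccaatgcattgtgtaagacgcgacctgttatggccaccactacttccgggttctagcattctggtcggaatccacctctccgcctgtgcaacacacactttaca
The core begins 200 bases before the start of Hlf and 246 bases before that of Meis1. It occurs in 25.6% of the 32851 promoters, so that a match is common, and it was also found once in the promoter of Bmi1. The promoters of Mecom, Prdm16, Mllt3 and Txnip held no copy. The cyclic AMP response element TGACGTCA begins 9 bases before the start of Hlf and is in 1.79% of promoters. RefSeq promoters were matched for 7 of the 9 genes, and a match is a string of letters and not a measured site.

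Mllt3 and Bmi1 act on chromatin. Mllt3 is a reader of acylated histones that brings in elongation factors and the methyltransferase Dot1l, and Bmi1 is a core subunit of Polycomb repressive complex 1. Mllt3 (1453622_s_at) had log2 intensities of 10.15 and 10.36 on Ncstn KO replicates 1 and 2, against 9.91 and 9.86 on WT replicates 1 and 2. Both Ncstn KO arrays lay above both WT arrays, and the change of 0.37 (SE 0.15, interval -0.0008 to 0.73), or 1.29-fold, failed the test across all genes (limma adjusted p = 0.736). It stayed above 0 under every scaling tried and without any 1 array, between 0.17 and 0.47. The second Mllt3 probe set read 9.81 and 10.21 in Ncstn KO against 9.86 and 9.59 in WT (0.28, SE 0.21). The dimmest read 8.67 and 8.89 against 8.85 and 8.87 (-0.08, SE 0.20), so that the separation of the groups rests on 1 of 3 probe sets.

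Bmi1 (1417493_at) had log2 intensities of 11.61 and 11.72 on Ncstn KO replicates 1 and 2, against 11.49 and 11.57 on WT replicates 1 and 2. The groups were separate by 0.04, and the change was 0.13 (SE 0.10, interval -0.11 to 0.37, limma adjusted p = 0.926). With scaling to the hybridization controls it was -0.06. The second Bmi1 probe set read 10.41 and 10.68 against 10.59 and 10.52, a change of -0.01 (SE 0.15). The interval of the brightest probe set excludes a change of 2-fold in either direction.

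Txnip encodes an arrestin-fold protein that binds thioredoxin and limits glucose uptake, and it is known as a brake on stem cell cycling and oxidative stress rather than as a DNA-binding factor. Its probe set 1415996_at had log2 intensities of 12.87 and 13.01 on Ncstn KO replicates 1 and 2, against 13.04 and 12.89 on WT replicates 1 and 2. The groups covered the same range, with a change of -0.02 (SE 0.08, interval -0.23 to 0.18, limma adjusted p = 0.9996), the narrowest interval of the 9. With scaling to the hybridization controls the change was -0.22 (limma unadjusted p = 0.046, adjusted p = 0.314). The second probe set read 10.68 and 10.80 in Ncstn KO against 10.76 and 10.87 in WT (-0.07, SE 0.12). The gene is known to be switched on by glucose through Mondo proteins and Mlx, which bind paired E-box-like sequences. In its promoter (chr3:96557707-96558006, plus strand) capitals mark 2 copies of CACGAG in the same orientation and the 5 bases between them.
Txnip: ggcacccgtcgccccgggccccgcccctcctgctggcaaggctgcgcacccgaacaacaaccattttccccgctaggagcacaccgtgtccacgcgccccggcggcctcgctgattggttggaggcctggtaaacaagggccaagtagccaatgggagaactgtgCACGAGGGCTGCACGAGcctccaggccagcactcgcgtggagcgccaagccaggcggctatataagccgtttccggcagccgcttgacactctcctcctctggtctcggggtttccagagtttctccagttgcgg
The pair begins 85 bases before the start. CACGAG alone, on either strand, is in 6.47% of the 32851 promoters, and 1 of them, that of Txnip, holds 2 copies in one orientation with this spacing.

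**Figure D2:**
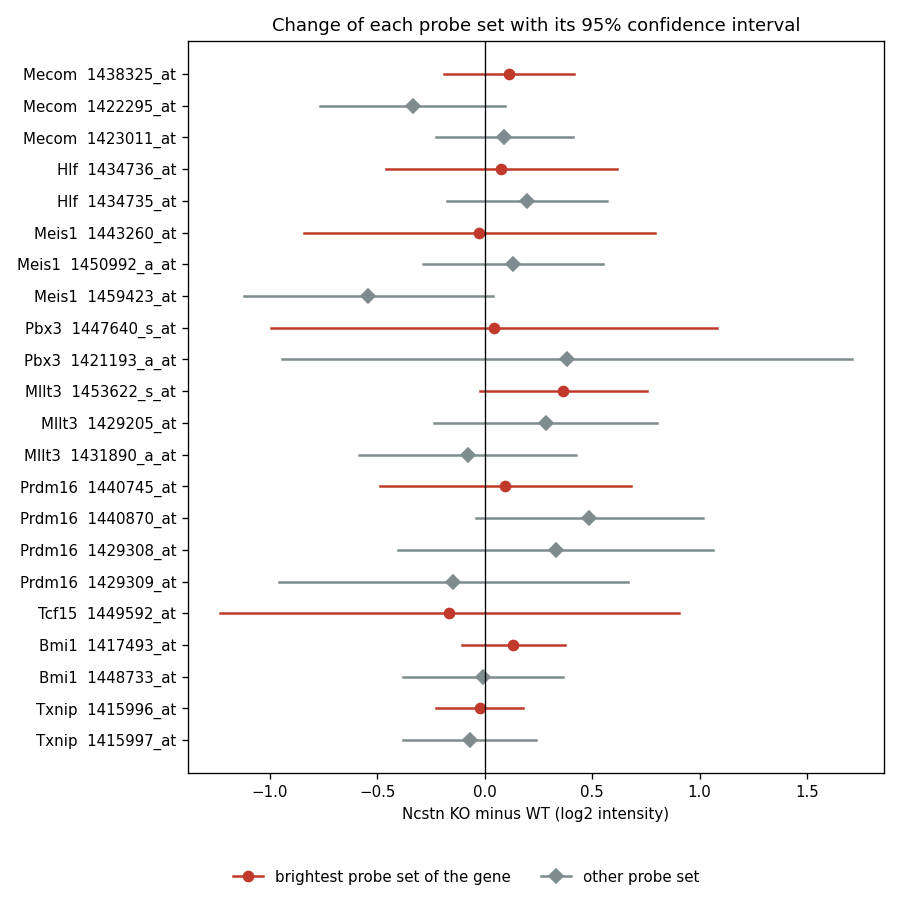
Change in log2 intensity, Ncstn KO minus WT (x axis), of all 22 probe sets with the 95% confidence interval of a limma fit over 45037 probe sets (n = 2 per group); red circles are the brightest probe set of a gene and grey diamonds the others. Every interval covers 0, and the probe sets of Mecom, Meis1, Mllt3, Prdm16 and Bmi1 fall on both sides of it.

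Of the 8 regulators with several probe sets, 5 had probe sets on both sides of 0, as had 50.2% of the 9010 genes of this kind. Of the 22 probe sets 0 passed, 0 had an unadjusted p under 0.05 (5.14% of all probe sets) and 13 lay above WT.

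For Meis1, Pbx3, Hlf, Prdm16, Mecom and Txnip both females lay on one side of both males. The comparison of females with males was added after their values had been seen, in a limma fit with genotype and sex as terms, so the values that follow describe these 4 mice, and with 1 female and 1 male per genotype sex and other differences between mice cannot be told apart. Xist, the transcript of the inactive X chromosome, was at 11.84 and 11.90 in the females against 4.88 and 6.09 in the males. The median size of the difference between the sexes was 0.40 for the 9 regulators and 0.15 for all genes (0.19 over the 22 probe sets of the regulators), while that between the genotypes was 0.09 for the regulators and 0.13 for all genes. The sexes did not overlap for 6 of 9 regulators, against 40.5% of all genes. Of these, 5 were lower in females (11.5% of all genes) and 1 was higher (29.0% of all genes). At an unadjusted p under 0.05 there were 6 of 9, beside 8.58% of all genes, and 0 of 9 passed after adjustment (0.0220% of all genes did). Not all of the 6 held in other settings. With arrays centred on the median, the limma unadjusted p was 0.31 for Mecom, 0.052 for Hlf and 0.62 for Txnip. Without the variance trend it was 0.15, 0.071 and 0.30. Meis1, Pbx3 and Prdm16 stayed under 0.05 in both settings.

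Meis1 averaged 10.14 in females and 10.81 in males, a female minus male difference of -0.68 (SE 0.15, limma adjusted p = 0.574). The difference was -0.90 among the Ncstn KO mice and -0.45 among the WT mice. Prdm16 differed by -0.47 (SE 0.11), with -0.48 in Ncstn KO and -0.45 in WT, and Hlf by -0.40 (SE 0.13), with -0.59 in Ncstn KO and -0.22 in WT. Mecom differed by -0.22 (SE 0.07) and Txnip by -0.14 (SE 0.05), each in the same direction in both genotypes. Pbx3 ran the other way, at 9.05 in females and 8.24 in males, a difference of 0.81 (SE 0.23) that was 1.11 in Ncstn KO and 0.51 in WT. None of these passed over all genes, the limma adjusted p being 0.574 for each.

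The other probe sets were mixed in this respect. Both Pbx3 probe sets were higher in both females, the second by 1.06 (SE 0.30). For Meis1 the 2 other probe sets differed by -0.20 (SE 0.14) and -0.09 (SE 0.24), and for Hlf the second by -0.17 (SE 0.13). The 3 other Prdm16 probe sets gave 0.00, -0.20 and 0.31, and the second Txnip probe set -0.01. With the mean over the probe sets of a gene, the difference was -0.32 for Meis1, -0.089 for Prdm16, -0.29 for Hlf, -0.14 for Mecom, -0.076 for Txnip and 0.93 for Pbx3, and of the 9 regulators Pbx3 alone had an unadjusted p under 0.05. Over all 22 probe sets the sexes were separate for 11, with 9 lower and 2 higher in females, against 41.0% of all probe sets. An unadjusted p under 0.05 was found for 7 of the 22, beside 7.90% of all probe sets. Mllt3 (-0.13, SE 0.13), Bmi1 (-0.01, SE 0.09) and Tcf15 (0.47, SE 0.38) had overlapping sexes on their brightest probe sets.

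Some marker lists also differed in sum between the sexes within each genotype in the same 4 mice, and 0 of their genes passed the test. The summed intensity of the mature neutrophil and monocyte genes was 40304 and 38102 in the Ncstn KO and WT females, against 53766 and 46830 in the males of those genotypes. Of its 8 genes 5 were lower in both females, among them Ltf with a difference of -0.94 (log2) and Camp with -0.67, and none was higher (11.5% and 29.0% of all genes). Kit, Cd34, Flt3 and Ptprc summed to 18733 and 18878 in the Ncstn KO and WT females, against 21232 and 20374 in the males. Kit (-0.20) and Ptprc (-0.43) were lower in both females, while Cd34 (0.003) and Flt3 (-0.11) had overlapping sexes. The 4 measured mature erythroid genes summed to 311 and 680 in the Ncstn KO and WT females, against 595 and 1195 in the males. The sexes overlapped in sum and for each gene, with a median difference of -0.57. The B cell and early lymphoid genes summed to 10775 and 13631 in the females, against 12872 and 14342 in the males, sums that overlapped too. Of these 8 genes 1, Ebf1, was lower in both females (11.5% of all genes). Slc4a1 again made up most of the mature erythroid sums, and Dntt most of the B cell and early lymphoid sums. Within each genotype the megakaryocyte-erythroid genes ran the other way, at 7845 and 3866 in the females against 6881 and 3227 in the males. Between the sexes these sums overlapped as well. Of these 8 genes 1, Klf1, was higher in both females (29.0% of all genes). The granulocyte-macrophage progenitor genes and the basophil and mast cell genes all had overlapping sexes. Of 6 T and NK cell genes 2 were higher in both females. Of 6 stromal and endothelial genes 2 were higher and 1 was lower in both females. The part of these lists in the difference between the sexes was not tested.

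**Figure D3:**
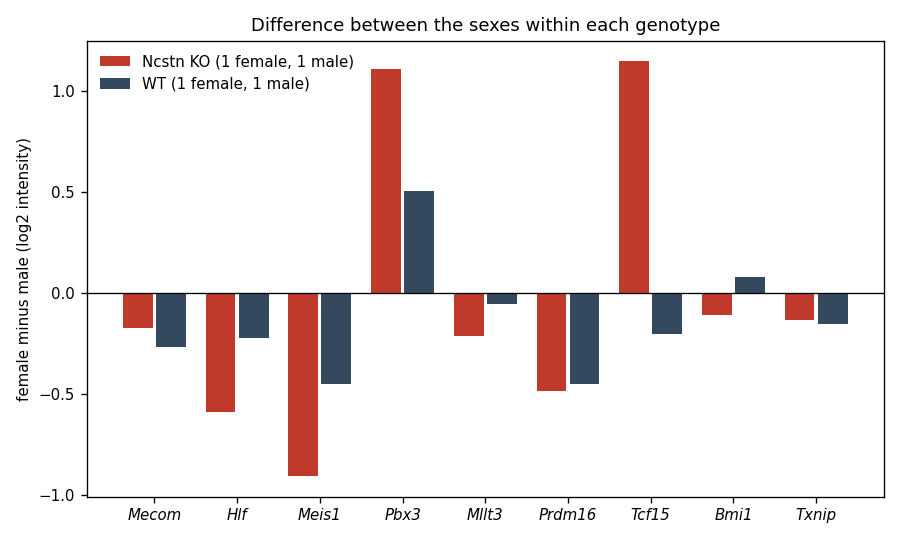
Female minus male difference in log2 intensity (y axis) of each regulator within Ncstn KO (red, left bar) and within WT (dark, right bar), from 1 female and 1 male each, so that the bars carry no error. Meis1, Hlf, Prdm16, Mecom, Txnip and Mllt3 are below 0 in both genotypes and Pbx3 is above 0 in both, while Tcf15 and Bmi1 change sides.

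The direction was the same in both genotypes for 7 of 9 regulators, against 59.0% of all genes. Read the other way, the Ncstn KO minus WT difference had opposite signs in females and males for Hlf, Meis1, Pbx3 and Tcf15, against 44.3% of all genes.

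Genes that work with the regulators were taken from 9 lists, and 0 of the 81 measured genes passed between the genotypes (0.00% of all genes). An unadjusted p under 0.05 was found for 7 of the 81, beside 6.80% of all genes. Their median change was 0.00, against 0.02 over all genes. Among 12 Hox and TALE partners of Meis1 and Pbx3, 6 lay above and 6 below WT, with Pknox1, a TALE relative, at -0.47 (SE 0.18), Hoxa10 at -0.30 (SE 0.14) and Pbx4 at 0.49 (SE 0.26). Of 14 measured Polycomb partners of Bmi1, 6 lay above and 8 below WT. Pcgf1, which takes the place of Bmi1 in a variant complex, was at 0.29 (SE 0.17), Pcgf6 at -0.21 (SE 0.14) and Cbx7 at 0.42 (SE 0.33). Cdkn2a and Cdkn2b, loci that Bmi1 holds silent, were dim on all arrays at 3.81 to 4.10 and 3.30 to 3.46, with changes of -0.11 (SE 0.19) and 0.00 (SE 0.16).

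Among 12 elongation and Mll partners of Mllt3, Ell2, an elongation factor, had 10.17 and 10.47 in Ncstn KO against 9.83 and 9.67 in WT. Its change of 0.57 (SE 0.17) had the same sign as that of Mllt3 and did not pass (limma adjusted p = 0.568). Dot1l was at -0.29 (SE 0.14) and Ccnt1 at -0.23 (SE 0.16), and the list had 6 members above and 6 below WT. The arrestin relatives of Txnip went in different directions. Arrdc3 had 10.52 and 11.16 in Ncstn KO against 11.61 and 11.28 in WT, a change of -0.60 (SE 0.23), while Arrdc4 was at 0.33 (SE 0.13) and Arrdc2 at 0.37 (SE 0.25). The 12 genes of this list had a median change of 0.01 and 0 passed.

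The bZIP relatives of Hlf were at -0.16 (SE 0.16) for Tef, -0.13 (SE 0.14) for Dbp and 0.06 (SE 0.33) for Nfil3, all with overlapping groups. Of 9 measured PRDM relatives and corepressors, 5 lay above and 4 below WT, with Prdm15 at -0.30 (SE 0.15), the methyltransferase gene Ehmt2 at 0.21 (SE 0.11) and Prdm4 at 0.16 (SE 0.11). The E-protein partners of Tcf15 were at 0.15 (SE 0.15) for Tcf12, 0.10 (SE 0.14) for Tcf3 and -0.01 (SE 0.07) for Tcf4. Other stem cell genes spread more widely, with 9 of 14 above WT (55.8% of all genes), 7 higher (21.3%) and 2 lower (12.8%) with separate groups and 0 past the test. Gata2, a transcription factor of stem cells and early progenitors, had 12.78 and 12.78 in Ncstn KO against 12.53 and 12.42 in WT, a change of 0.31 (SE 0.07, limma adjusted p = 0.433). The list ran from -0.69 (SE 0.19) for Ndn to 0.83 (SE 0.28) for Slamf1, a receptor used to sort stem cells.

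**Figure D4:**
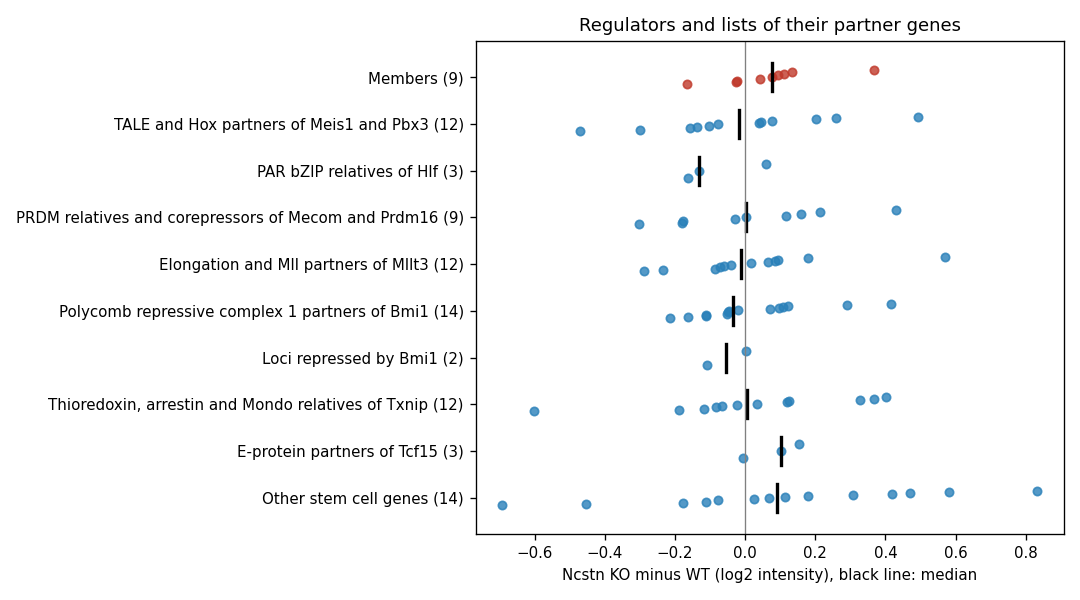
Change in log2 intensity, Ncstn KO minus WT (x axis), of the 9 regulators (red) and of the measured genes of 9 lists of partner and related genes (blue, number in brackets), with 1 point per gene and a black line at each median. The medians lie between -0.13 and 0.10, and 8 of the 9 regulators lie within 0.25 of 0.

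Between females and males, Hoxb3 of the Hox partners was lower in both females, at 9.03 in females and 9.81 in males (-0.79, SE 0.17), as were Hoxa9 (-0.20, SE 0.08) and Hoxb5 (-0.43, SE 0.25). Hoxa7 was higher in both females (0.15, SE 0.18), and the other 8 of the 12 partners had overlapping sexes, so that 4 of 12 were separate, against 40.5% of all genes. Of the other stem cell genes, Procr differed by -0.31 (SE 0.11) and Fgd5 by -0.47 (SE 0.25), and the remaining 12 of 14 had overlapping sexes. These 6 genes were named after their values were seen, and none passed (limma adjusted p of 0.574 to 0.777). The other partner lists had separate sexes too. Higher and lower in both females were 4 and 5 of 12 elongation and Mll partners, and 5 and 2 of 12 relatives of Txnip. The counts were 3 and 1 of 14 Polycomb partners, 2 and 2 of 9 PRDM relatives and corepressors, and 2 and 1 of 3 bZIP relatives. Of 3 E-proteins 1 was higher and 1 lower, and of 2 loci silenced by Bmi1 1 was higher (all genes: 29.0% higher, 11.5% lower).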

How the data were processed

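RNA of LSK cells from 4 mice, 5 ng per sample, was amplified with NuGEN Ovation reagents, labelled with biotin and hybridized to Affymetrix arrays, per the labels' protocols. The deposited values are probe set intensities, summarised with RMA per the submitters' processing notes (version not given in the sources used here). They run from 3.32 to 23642.6, so the scale was taken as linear and log2 was computed first. RMA values hold no background or detection call. The number of arrays, the level, the spread between mice and the disagreement between probe sets are among the limits on precision. Median intensities were 71.6 to 79.2, Pearson's r between arrays across genes 0.989 to 0.995, and no scaling was added.

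Of 45101 probe sets 64 controls were left out. The platform annotation of 2016 gave 1 gene for 34945, several for 932 and none for 9160; 34741 matched the RefSeq table of GRCm38.p6, which changed 0 symbols. The genotypes were compared in limma 3.58.1 under R 4.3.3, using lmFit and then eBayes (trend on) with two-sided p-values and Benjamini-Hochberg adjustment at 0.05 with 2 residual and a mean of 4.11 prior degrees of freedom, and tested on simulated data first. The labels tie no sample of one group to one of the other, and same-numbered arrays did not deviate together (r = -0.24 across genes). The members and the lists were chosen with earlier results of these data known. The text names the 9 members, Ncstn, and up to 3 genes of each partner list with the smallest unadjusted p; markers and the genes of the sex comparison are added as values. Alternatives covered scaling, probe set summary, a level filter, a log offset of 16, the variance trend, blocks and leaving out each array. Promoters came from RefSeq, and figures were drawn with matplotlib 3.10.9.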

Additional observations from a re-analysis of the deposited data

Results flagged for a closer look

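The difference between Ncstn KO and WT went one way in the female pair and the other way in the male pair for 4 of the 9 regulators. Each pair holds 1 array per genotype, so the difference between the sexes was not tested. Hlf changed by -0.11 in females and 0.26 in males, and Meis1 by -0.26 in females and 0.20 in males. Pbx3 changed by 0.34 in females and -0.26 in males. Tcf15 changed by 0.51 in females and -0.84 in males, the widest split of the 4, from a single probe set below the median level of all genes. Opposite signs were found for 44.3% of all genes.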

How the results depend on the processing

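The count of regulators past the test was 0 under all 13 alternatives (the filter on level left 8 of them, without Tcf15), as was the count of partner genes, and the count of their probe sets was 0 under all 11 that keep the probe sets apart. Over all genes the count of calls was 3 after quantile normalization, 62 with arrays centred on the median, 2 among genes above the median level and 0 to 27 without 1 array, against 0. Genes of at least 2-fold with separate groups numbered 80 above the median level, 190 with log2(value + 16) and 419 to 566 without 1 array, against 311. With the replicate number as a block the fit called 0 genes and the median of the regulators was 0.076; the block with sex, which is the crossed pairing of the numbers, called 0 genes too. The hybridization controls were higher in Ncstn KO by 0.195, and scaling to them moved the median of all genes to -0.17 and that of the regulators to -0.12. Directions then turned for Mecom (-0.084), Hlf (-0.12), Pbx3 (-0.15), Prdm16 (-0.10) and Bmi1 (-0.062). Mecom also turned with the mean of its probe sets (-0.045). Without 1 array the median of the regulators was -0.04 to 0.20, and the changes ran from -0.023 to 0.25 for Mecom, -0.22 to 0.37 for Hlf, -0.48 to 0.42 for Meis1, -0.51 to 0.60 for Pbx3, -0.15 to 0.34 for Prdm16, -0.74 to 0.41 for Tcf15 and -0.10 to 0.054 for Txnip, with the sign turned at 1 end of each range. Mllt3 kept its sign under all 13. In the comparison of the sexes, added after the values were seen, 0 regulators passed under each of the 7 alternatives run, and Bmi1 turned to 0.076 with arrays centred on the median; without 1 array that fit has no residual degrees of freedom and was not run. Level limits the dimmest probe sets, those of Mecom below 4.1 and of Cdkn2a and Cdkn2b, and RMA values give no signal over background to judge them by.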
